A study of Mus musculus with 18 samples.

Results

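Genes that glucocorticoid hormones induce in many tissues, 10 in number, were followed through 18 hemibrain libraries: Fkbp5, Sgk1, Tsc22d3, Zbtb16, Nfkbia, Cdkn1a, Ddit4, Plin4, Mt1 and Mt2. They were chosen by symbol from a list of known glucocorticoid targets, and all 10 were present among the 52433 symbols of the raw count table. All 10 also passed the filter on low counts that left 18891 genes for testing. The question was how far these genes, which respond to stress around the time of collection, varied between mice and between genotypes.

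The libraries were polyA RNA-seq of 1 flash-frozen hemibrain each, from mice aged 12 months on a C57bl/6 background. The mice were homozygous for human APOE2 (n = 6), human APOE4 (n = 6) or human APOE3 (n = 6), with 3 females and 3 males per genotype. In every group the mouse Apoe gene had been exchanged for a human allele by targeted replacement, so the comparison is between human alleles, without a group of unmodified mice. The hour of collection, the handling of the mice and their hormone levels do not appear in the labels. A hemibrain is bulk tissue, so fewer cells of a type and less RNA per cell cannot be told apart.

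Glucocorticoids, corticosterone in mice, are released by the adrenal gland under the control of the hypothalamus and pituitary. They follow the time of day and rise within minutes of a stressor. In the brain the hormone binds the glucocorticoid receptor (Nr3c1) and the mineralocorticoid receptor (Nr3c2), which move to the nucleus and bind DNA. Many target genes carry a palindrome of hexamers spaced by 3 bases, the glucocorticoid response element. Targets include feedback inhibitors of the receptor, kinases and growth inhibitors, transcription factors that restrain inflammation, and metabolic genes of astrocytes and endothelium.

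The promoters of 3 genes are shown because their genes include the pair with the highest Pearson r as measured, Mt1 and Mt2, and the member with the widest range among the well expressed ones, Sgk1. Each sequence is the 250 bases before a transcription start in RefSeq (build GRCm38.p6, plus strand for all 3 genes), written 5′ to 3′. Capitals mark matches to the glucocorticoid response element core (GNACA, any 3 bases, then TGTNC) or to the metal response element core TGCACNC or TGCGCNC, searched on both strands. The windows are chr8:94172368-94172617 for Mt2, chr8:94178839-94179088 for Mt1 and chr10:21993640-21993889 for Sgk1.
Mt2: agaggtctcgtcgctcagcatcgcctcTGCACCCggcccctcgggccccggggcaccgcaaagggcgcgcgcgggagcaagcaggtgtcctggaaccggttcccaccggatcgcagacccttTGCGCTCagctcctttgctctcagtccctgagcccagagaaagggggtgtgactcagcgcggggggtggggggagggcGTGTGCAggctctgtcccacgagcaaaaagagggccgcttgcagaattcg
Mt1: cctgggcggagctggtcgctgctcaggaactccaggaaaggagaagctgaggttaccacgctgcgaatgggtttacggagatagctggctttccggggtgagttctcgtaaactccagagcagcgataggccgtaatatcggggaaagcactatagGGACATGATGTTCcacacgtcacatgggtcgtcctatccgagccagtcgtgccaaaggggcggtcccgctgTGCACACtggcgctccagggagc
Sgk1: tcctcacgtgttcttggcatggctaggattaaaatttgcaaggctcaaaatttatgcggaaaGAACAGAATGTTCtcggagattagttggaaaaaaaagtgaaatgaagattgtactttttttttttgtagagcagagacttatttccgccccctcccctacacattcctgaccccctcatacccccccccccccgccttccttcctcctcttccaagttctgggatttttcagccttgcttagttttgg

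The glucocorticoid core matched in the Mt1 window from -94 to -82 and in the Sgk1 window from -188 to -176, counted from the base before the start as -1. It was found in 127 of 32851 such windows in RefSeq (0.387%) and in 2 of 17 windows of the 9 members with an entry. The metal core was found in 7032 of the 32851 windows (21.4%), with 3 matches for Mt2 and 1 each for Mt1, Ddit4 and Nfkbia. The hexamer TGTTCT, which overlaps the palindrome, was in 16.1% of windows, Sgk1 and Tsc22d3 among them. The E-box CACGTG was in 6.02%, including Fkbp5 and Sgk1. A match describes the letters only and is not a shown binding site. Zbtb16 had no entry.

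Per length of exon, the metallothioneins were the most abundant of the 10. Mt2 averaged 135 and Mt1 110 CPM per kb of exon (CPM, counts scaled to library size with TMM factors), against 22.3 for Ddit4, 17.1 for Sgk1 and 16.5 for Tsc22d3 on the same scale. Plin4 was the least abundant at 1.08 CPM per kb. Library totals ran from 49545646 to 59394503 counts in APOE2, 48841442 to 52761314 in APOE4 and 43818967 to 50382463 in APOE3, so the lowest member count was 93 reads of Plin4 and the lowest of any other member was 493 reads of Cdkn1a.

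Every member varied more between mice than most genes did. After the means of genotype and sex were taken out, the SD of log2 CPM was 1.001 for Plin4, 0.54 for Sgk1 and 0.22 to 0.33 for the other members. The median over 14827 genes averaging 1 CPM or more was 0.11, and the members stood between the 88.4 percentile (Ddit4) and the 99.9 percentile (Plin4) of those genes. Counting error was 1.205% to 5.63% of the mean.

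**Figure D1:**
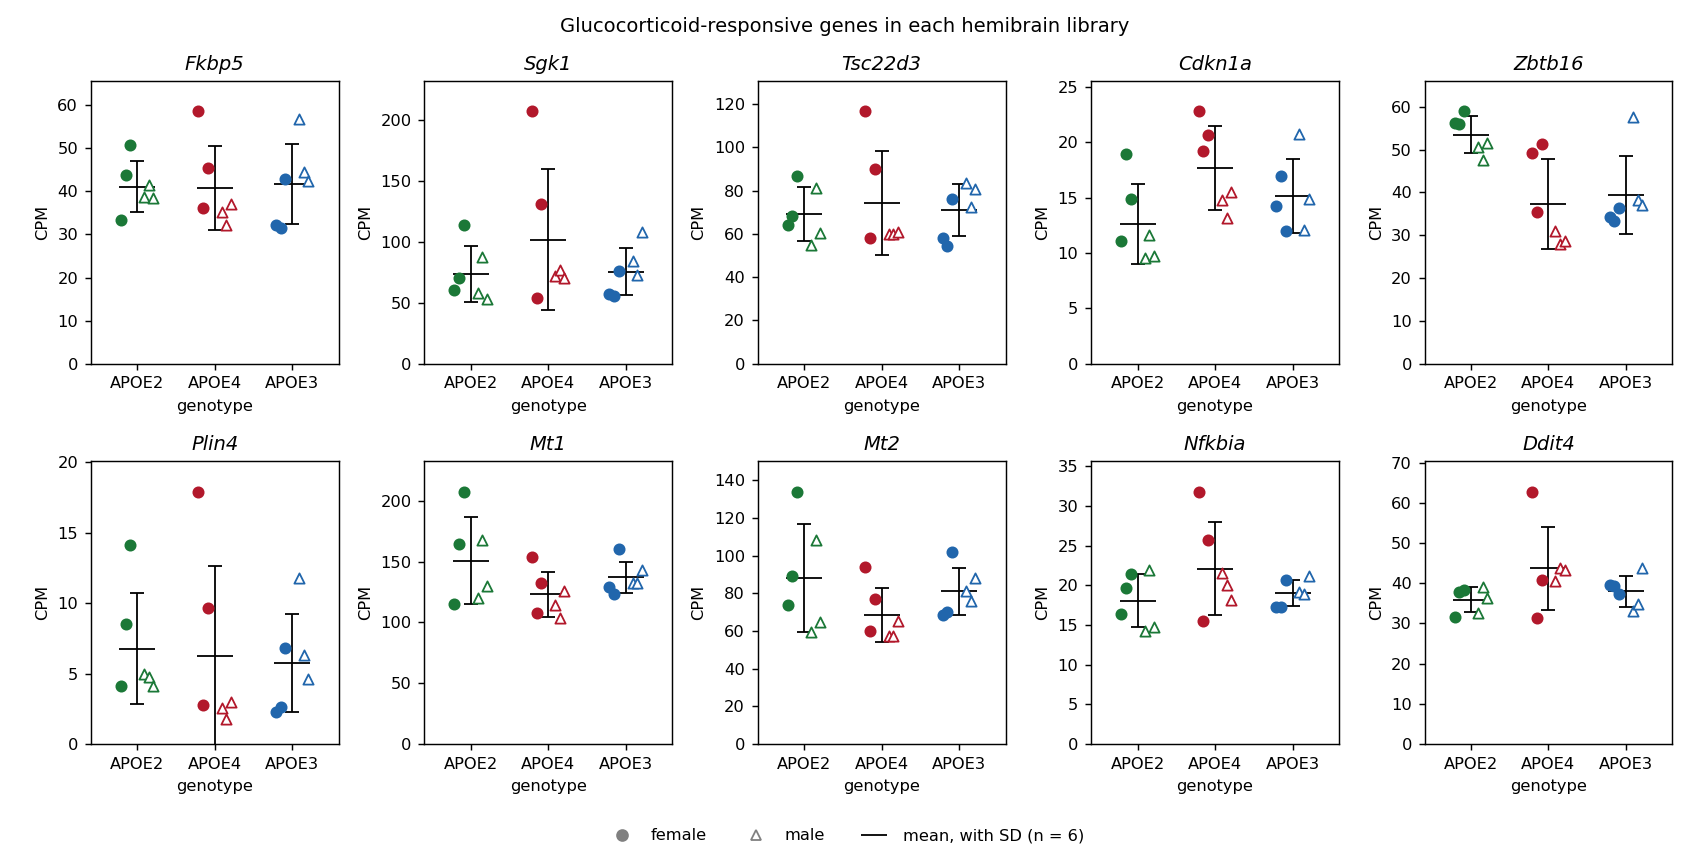
CPM of each of the 10 genes (vertical axes, from 0) in the 6 APOE2, 6 APOE4 and 6 APOE3 libraries, with females as filled circles, males as open triangles, and the mean with its SD in black. One APOE4 female is the highest library for 7 of the 10 genes, and the genotype ranges overlap for every gene; the lower SD bar of Plin4 in APOE4 runs past 0.

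None of the 10 genes passed the test in any genotype comparison (edgeR quasi-likelihood test, Benjamini-Hochberg over 18891 genes). The count was 0 of 10 in APOE2 versus APOE3, where 3.91% of all genes tested were called. It was 0 of 10 in APOE2 versus APOE4, where 6.53% were called, and 0 of 10 in APOE4 versus APOE3, where 0.773% were called. Without adjustment, 1, 4 and 0 of the 10 had p under 0.05 in these 3 comparisons, against 16.8%, 20.2% and 8.78% of all genes. DESeq2 and limma voom each called 1 member, Zbtb16, in APOE2 versus APOE4, and neither called any in the other comparisons. The median log2 fold change of the members was -0.04 in APOE2 versus APOE3, -0.04 in APOE2 versus APOE4 and 0.01 in APOE4 versus APOE3, against 0.00 over all genes in each. The CPM ranges of 6 and 6 mice overlapped for all 10 members in all 3 comparisons, while they were separate for 3.23%, 3.48% and 1.48% of genes. Each genotype takes part in 2 of the comparisons, so they share libraries. Each p-value measures the spread between mice that the labels list as separate animals.

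**Figure D2:**
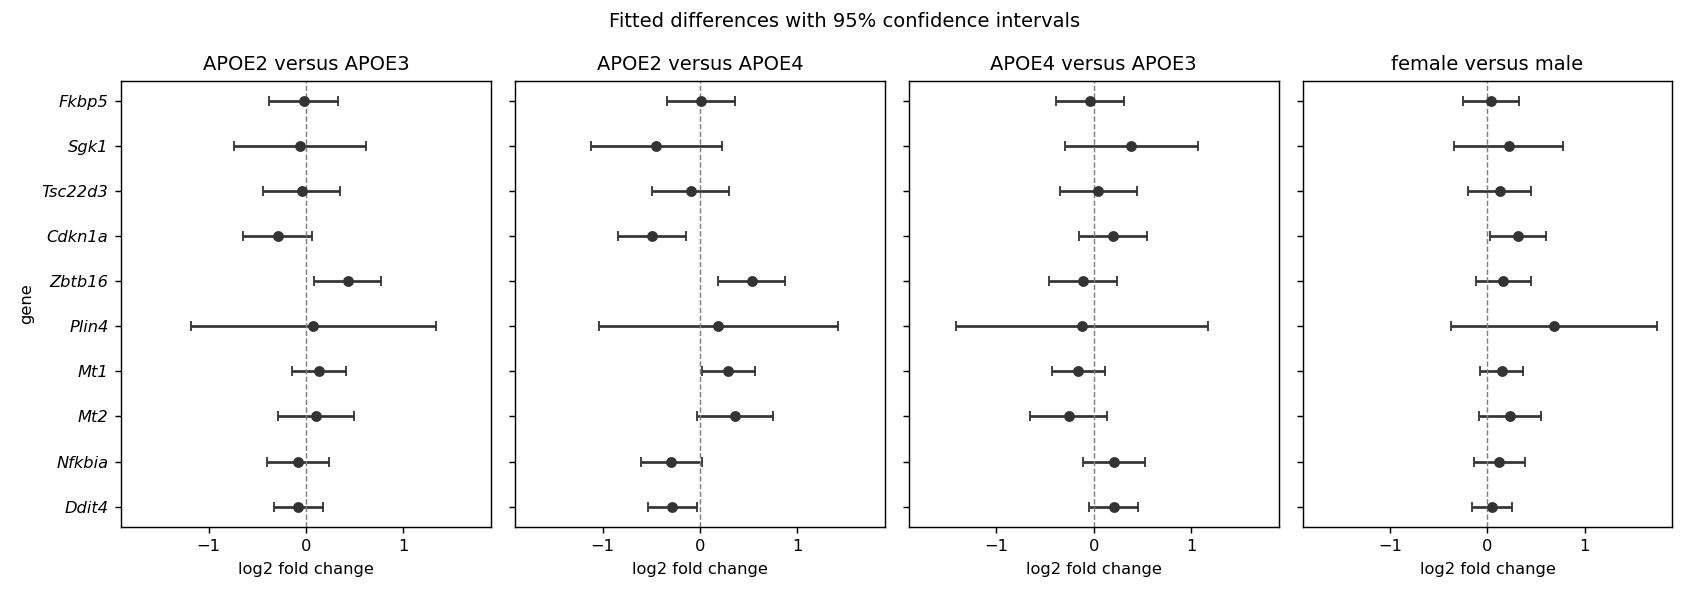
Fitted log2 fold changes of the 10 genes (horizontal axes; points) with 95% confidence intervals (bars) for APOE2 versus APOE3, APOE2 versus APOE4, APOE4 versus APOE3 and female versus male. The intervals of Zbtb16, Cdkn1a, Mt1 and Ddit4 lie off 0 in APOE2 versus APOE4, none with an adjusted p under 0.05, and the Plin4 intervals are the widest.

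Fkbp5 (chr17:28399094-28517527, minus strand, GRCm38) encodes a co-chaperone that binds HSP90 and lowers the affinity of the glucocorticoid receptor for hormone, closing a short feedback loop. Its lowest, median and highest CPM were 33.4, 40.1 and 50.7 in APOE2 libraries, 32.1, 36.6 and 58.6 in APOE4 and 31.6, 42.6 and 56.9 in APOE3. The ranges were nearly the same, and the highest mice were a female in APOE4 and a male in APOE3. The fitted log2 differences were -0.03 ± 0.17 for APOE2 versus APOE3, 0.01 ± 0.17 for APOE2 versus APOE4 and -0.04 ± 0.17 for APOE4 versus APOE3 (SE), with adjusted p = 0.957, 0.979 and 0.985. The 95% interval of APOE2 versus APOE3 ran from -0.38 to 0.33.

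Sgk1 (chr10:21882184-21999903, plus strand), the serum- and glucocorticoid-regulated kinase that acts on ion channels and transporters, had the widest range after Plin4. Lowest, median and highest were 53.1, 65.1 and 114 CPM in APOE2, 53.6, 74.8 and 207 CPM in APOE4 and 55.3, 74.2 and 108 CPM in APOE3. Replicate 1 of APOE4, a female, stood at 207 CPM, 3.90-fold above the lowest of the 18 libraries, and replicate 3 of APOE4, also a female, at 131 CPM. The 4 other APOE4 mice lay between 53.6 and 77.3 CPM, inside the range of APOE2. Replicate 2 of APOE4, at 53.6 CPM, lay under the lowest APOE3 library at 55.3 CPM. The log2 difference was -0.45 ± 0.31 in APOE2 versus APOE4 (SE, adjusted p = 0.471) and 0.39 ± 0.32 in APOE4 versus APOE3 (adjusted p = 0.833). Without replicate 1 of APOE4 they were -0.14 and 0.10. In APOE2 versus APOE3 the difference was -0.06 ± 0.32 (adjusted p = 0.946).

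Tsc22d3 and Nfkbia restrain inflammatory transcription: Tsc22d3 (chrX:140539528-140600659, minus strand) encodes GILZ, a leucine zipper protein, and Nfkbia (chr12:55489410-55492647, minus strand) encodes the inhibitor that holds NF-kB in the cytoplasm. Tsc22d3 had a lowest, median and highest of 55.0, 66.1 and 86.6 CPM in APOE2, 57.9, 60.5 and 117 CPM in APOE4 and 54.4, 74.4 and 83.5 CPM in APOE3. The same APOE4 females, replicates 1 and 3, were highest, at 117 and 90.2 CPM. All 3 genotype differences of Tsc22d3 were within 0.10 on the log2 scale, with adjusted p of at least 0.831. Leaving out replicate 1 of APOE4, the difference was 0.07 in APOE2 versus APOE4 and -0.11 in APOE4 versus APOE3, against -0.09 and 0.05 with it. Nfkbia had 14.2, 18.02 and 21.9 CPM in APOE2, 15.4, 20.8 and 31.8 CPM in APOE4 and 17.2, 19.0 and 21.2 CPM in APOE3. Replicates 1 and 3 of APOE4 again lay above every other library, at 31.8 and 25.7 CPM. Its log2 difference was -0.29 ± 0.15 in APOE2 versus APOE4 (SE, adjusted p = 0.294), and -0.17 without replicate 1 of APOE4.

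Zbtb16 (chr9:48654297-48836222, minus strand), the gene of the zinc finger transcription factor PLZF, came nearest to a genotype difference. Lowest, median and highest were 47.7, 53.8 and 58.9 CPM in APOE2, 27.8, 33.2 and 51.3 CPM in APOE4 and 33.2, 36.6 and 57.7 CPM in APOE3. All 6 APOE2 libraries lay in a narrow band at the top, and 3 other libraries reached it: replicates 1 and 3 of APOE4 at 49.3 and 51.3 CPM, and replicate 1 of APOE3 at 57.7 CPM. These 3 lay in the upper 9 of 18 libraries for 10, 10 and 8 of the 10 members. The means were 53.5 ± 4.24 CPM in APOE2, 37.2 ± 10.5 CPM in APOE4 and 39.4 ± 9.13 CPM in APOE3 (SD, n = 6).

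The log2 difference of Zbtb16 was 0.53 ± 0.16 in APOE2 versus APOE4 (SE, a fold of 1.45, adjusted p = 0.0629) and 0.43 ± 0.16 in APOE2 versus APOE3 (adjusted p = 0.187). It was -0.11 ± 0.16 in APOE4 versus APOE3 (adjusted p = 0.941). APOE2 versus APOE4 crossed the threshold under 8 of 28 alternatives, over which the adjusted p ran from 0.00161 to 0.146. These included DESeq2 (adjusted p = 0.0257), limma voom (0.0374), a filter of 1 CPM in 6 libraries (0.0491), the 12 compared libraries alone (0.00183) and 1 mean per genotype and sex (0.00161). Leaving out replicate 1 of APOE3 (0.00496), replicate 1 of APOE4 (0.0417) or replicate 3 of APOE4 (0.0263) also brought it past the threshold. APOE2 versus APOE3 passed under 2 of 28 alternatives, 1 mean per genotype and sex (0.013) and leaving out replicate 1 of APOE3 (0.00515), with a range of 0.00515 to 0.375. The authors' deposited table of APOE2 over APOE4 gave Zbtb16 a log2 fold change of 0.54 with an adjusted p of 0.0282, and the other 9 members were above 0.05 there. In the authors' deposited table of APOE2 over APOE3 no member was under 0.05, and Zbtb16 had the lowest adjusted p at 0.171. In the authors' deposited table of APOE3 over APOE4 the lowest adjusted p of a member was 0.6996.

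Zbtb16 values of APOE2 and APOE4 did not overlap within either sex, with 56.1 to 58.9 CPM in APOE2 females against 35.5 to 51.3 CPM in APOE4 females. In males they were 47.7 to 51.5 CPM in APOE2 and 27.8 to 30.9 CPM in APOE4. Cdkn1a was the only other member separated within both sexes in this comparison, where 5.33% of all genes tested were so separated in the same direction. No member was so separated in APOE2 versus APOE3 (4.45% of genes) or in APOE4 versus APOE3 (2.23% of genes). With 3 mice per genotype and sex, an exact permutation test within a sex cannot go below a two-sided p of 0.10. Zbtb16 lies in a 10 Mb window of chromosome 9, from 40 to 50 Mb, in which 38 of 101 tested genes (37.6%) were called in APOE2 versus APOE4 and 31 of 101 (30.7%) in APOE2 versus APOE3. None of the 101 was called in APOE4 versus APOE3. The part of this region in the Zbtb16 values was not tested.

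Cdkn1a (chr17:29090976-29100727, plus strand) encodes p21, an inhibitor of cyclin-dependent kinases that p53 also induces, and Ddit4 (chr10:59949669-59951834, minus strand) encodes REDD1, an inhibitor of mTORC1. Cdkn1a had a lowest, median and highest of 9.51, 11.3 and 18.9 CPM in APOE2, 13.2, 17.3 and 22.8 CPM in APOE4 and 12.0, 14.5 and 20.7 CPM in APOE3. The other 5 of the 6 APOE2 mice lay at or under 14.9 CPM, while replicate 2 of APOE2 stood apart at 18.9 CPM. The difference in APOE2 versus APOE4 was -0.49 ± 0.16 on the log2 scale (SE, a fold of 0.713, adjusted p = 0.0966), and -0.29 ± 0.17 in APOE2 versus APOE3 (adjusted p = 0.396). APOE2 versus APOE4 passed under 4 of 28 alternatives, whose adjusted p ran from 0.00862 to 0.217. They were the 12 compared libraries alone (0.00862), 1 mean per genotype and sex (0.0448), and the fits without replicate 2 of APOE2 (0.0277) or without replicate 1 of APOE3 (0.020).

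Ddit4 had 31.6, 37.0 and 39.0 CPM in APOE2, 31.4, 41.9 and 62.8 CPM in APOE4 and 33.1, 38.3 and 43.7 CPM in APOE3. Apart from replicate 1 of APOE4 at 62.8 CPM, the 17 libraries kept between 31.4 and 43.9 CPM. The log2 difference was -0.28 ± 0.12 in APOE2 versus APOE4 (SE, adjusted p = 0.186). It was -0.15 without replicate 1 of APOE4, and -0.37 with adjusted p = 0.0287 without replicate 2 of APOE4, the 1 alternative of 28 that passed (range 0.0287 to 0.409). In APOE4 versus APOE3 it was 0.20 ± 0.12 (adjusted p = 0.710).

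Plin4 (chr17:56100591-56109803, minus strand) encodes a perilipin that coats lipid droplets and varied most of all. Its lowest, median and highest were 4.09, 4.89 and 14.1 CPM in APOE2, 1.76, 2.85 and 17.9 CPM in APOE4 and 2.26, 5.48 and 11.8 CPM in APOE3. The highest library exceeded the lowest 10.2-fold, and both were APOE4 mice. The highest values of each genotype came from 1 or 2 mice: 14.1 CPM in replicate 3 of APOE2, 17.9 and 9.67 CPM in replicates 1 and 3 of APOE4, and 11.8 CPM in replicate 1 of APOE3. The difference was 0.19 ± 0.57 in APOE2 versus APOE4 (log2, SE, adjusted p = 0.898), with a 95% interval from -1.04 to 1.42. It was 0.76 without replicate 1 of APOE4, and the difference in APOE4 versus APOE3 was -0.62, against -0.12 with that mouse. Plin4 shares ground with Hdgfl2 on the opposite strand, which had up to 4928 reads in a library, and with the strand setting unstated, reads of the pair cannot be told apart.

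Mt1 (chr8:94179082-94180327, plus strand) and Mt2 (chr8:94172664-94173568, plus strand) are neighbouring metallothionein genes whose small proteins bind zinc and copper, and zinc induces them as well. Mt1 had a lowest, median and highest of 115, 147 and 208 CPM in APOE2, 103, 120 and 154 CPM in APOE4 and 123, 133 and 160 CPM in APOE3. Mt2 had 59.2, 81.5 and 134 CPM in APOE2, 57.3, 62.7 and 94.0 CPM in APOE4 and 68.6, 78.8 and 102 CPM in APOE3. Here the highest library was replicate 3 of APOE2, a female, for both genes, and replicate 5 of APOE4, a male, was lowest for both. The log2 difference in APOE2 versus APOE4 was 0.29 ± 0.13 for Mt1 and 0.36 ± 0.18 for Mt2 (SE), with adjusted p = 0.215 and 0.286. Neither passed in the other comparisons, with adjusted p of 0.646 and 0.816 in APOE2 versus APOE3 and 0.829 and 0.784 in APOE4 versus APOE3.

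By mean CPM the genotypes fell into 4 orders over the 10 genes. APOE4 was highest and APOE2 lowest for Sgk1, Tsc22d3, Nfkbia, Cdkn1a and Ddit4, while APOE2 was highest and APOE4 lowest for Zbtb16, Mt1 and Mt2. Plin4 ran from APOE2 over APOE4 to APOE3, and Fkbp5 from APOE3 over APOE2 to APOE4. The APOE4 mean without its replicate 1 was the lowest for Tsc22d3 (65.8 CPM) and for Plin4 (3.93 CPM), and the other 8 orders stayed. No neighbours in these orders differed beyond their spread by the test above.

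Females had higher fitted levels than males for all 10 genes, but none passed the test. The count was 0 of 10 in female versus male, where 0.132% of all genes were called, and 1 of 10 had an unadjusted p under 0.05, against 8.46% of genes. The lowest adjusted p of a member was 0.558, for Cdkn1a at 16.7 ± 3.98 CPM in females and 13.6 ± 3.47 CPM in males (SD, n = 9). The median log2 difference of the members was 0.15, against 0.00 over all genes. Without replicate 1 of APOE4, the highest female, 8 of the 10 stayed positive, and Fkbp5 and Ddit4 turned to -0.05 and -0.05.

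The sexes did not lie the same way in each genotype. Fkbp5 averaged 42.6 ± 8.72 CPM in APOE2 females and 39.5 ± 1.62 CPM in APOE2 males, and 46.7 ± 11.3 CPM in APOE4 females and 34.8 ± 2.52 CPM in APOE4 males (SD, n = 3 each). In APOE3 it averaged 35.6 ± 6.41 CPM in females and 47.9 ± 7.90 CPM in males. Zbtb16 had 45.4 ± 8.57 CPM in APOE4 females and 29.1 ± 1.61 CPM in APOE4 males, against 34.6 ± 1.56 CPM in APOE3 females and 44.3 ± 11.7 CPM in APOE3 males. All 10 members had a larger female minus male log2 difference in APOE4 than in APOE3, from 0.02 for Ddit4 to 3.03 for Plin4. In this interaction 6 of 10 had an unadjusted p under 0.05, against 6.81% of all genes, but 0 of 10 passed after adjustment, where 0.0106% of genes did. The members moved together across the same mice, as given below, so the 10 are not separate observations here or between the sexes.

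Zbtb16 had the smallest p of the members in this interaction, with a log2 difference of 0.997 ± 0.201 (SE, adjusted p = 0.191). It passed with DESeq2 (adjusted p = 6.24e-04) and without replicate 2 of APOE4 (0.0244), 2 of 20 alternatives that ran from 6.24e-04 to 0.482. In APOE2 versus APOE3 the interaction was positive for 9 of 10 members and called for 0 of 10 (0.0% of genes called), with 2 of 10 under 0.05 unadjusted against 5.79% of genes. In APOE2 versus APOE4 it was positive for 2 of 10 and called for 0 of 10 (0.0% of genes), with 1 of 10 under 0.05 unadjusted against 2.57% of genes. With 3 mice per sex and genotype the intervals were wide, from 0.12 to 2.54 for Sgk1 in the APOE4 versus APOE3 interaction. Without replicate 1 of APOE4, 9 of 10 members stayed positive in that interaction and 4 had an unadjusted p under 0.05.

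Variation between individual mice was shared between the genes. The mean z score of the 10 genes, as measured, was highest in replicate 1 of APOE4 (1.85), then in replicate 3 of APOE2 (1.14), replicate 3 of APOE4 (0.79) and replicate 1 of APOE3 (0.58). It was lowest in replicate 2 of APOE4 (-0.79), replicate 4 of APOE2 (-0.75) and replicate 5 of APOE4 (-0.74). High and low mice thus occurred in every genotype, and APOE4 held both the highest and the lowest library. Replicate 1 of APOE4 was the highest library for 7 of 10 members and replicate 3 of APOE2 for the other 3, while these libraries were highest for 6.04% and 3.89% of 14827 genes. Replicate 1 of APOE4 was among the 4 highest libraries for 8 members, and replicate 2 of APOE4 among the 4 lowest for 6.

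**Figure D3:**
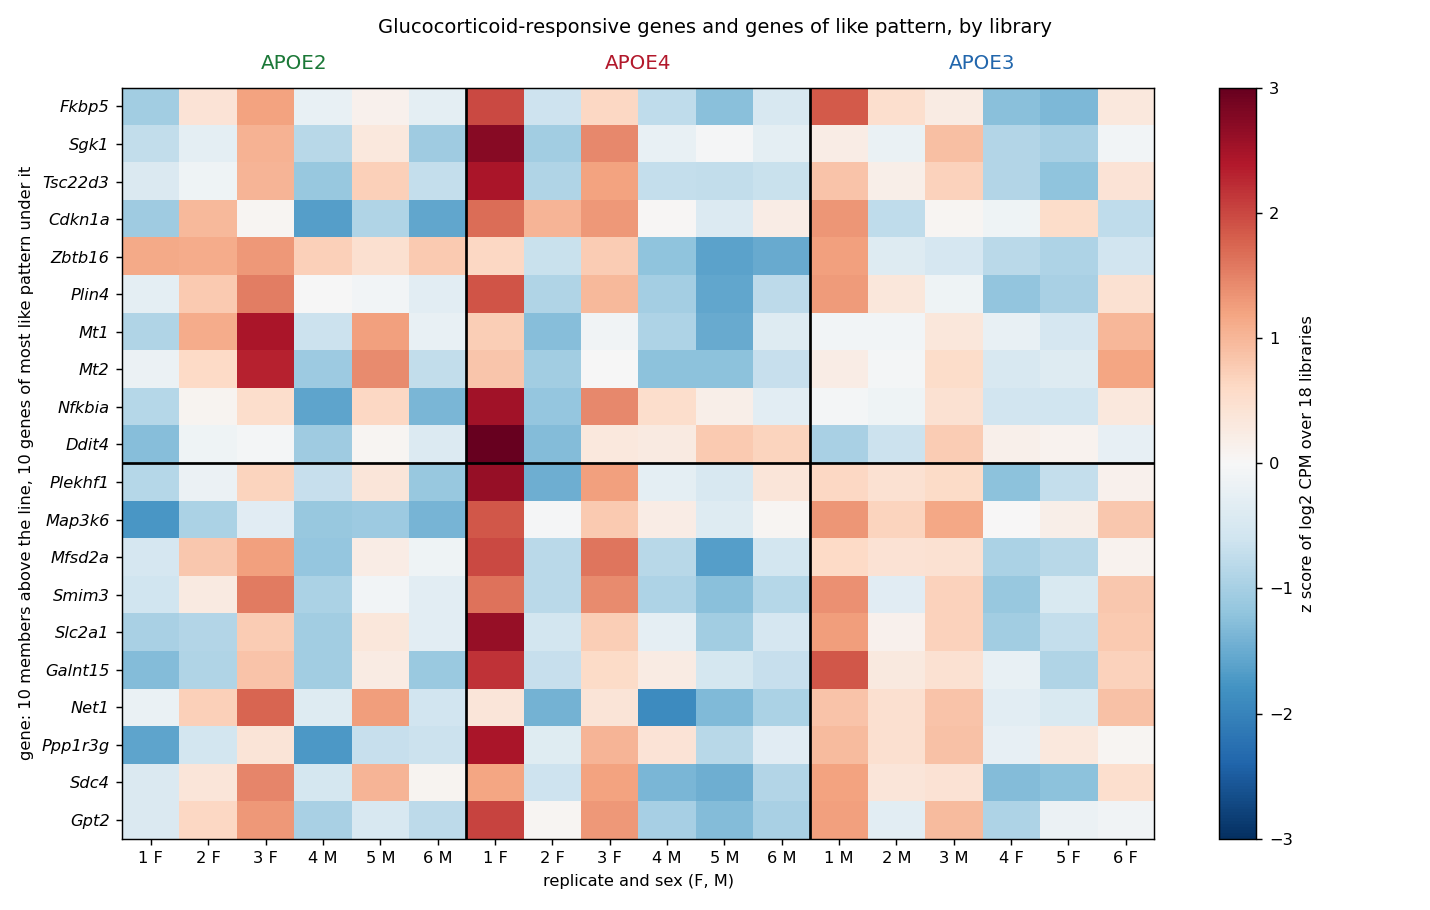
Z scores of log2 CPM over 18 libraries (colour, blue low and red high) for the 10 members above the line and the 10 genes of most like pattern under it, in columns by genotype, replicate and sex. Replicates 1 and 3 of APOE4, replicate 3 of APOE2 and replicate 1 of APOE3 are red in most rows, and replicate 2 of APOE4 and replicates 4 and 5 of APOE3 are blue in most.

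Pairs of members correlated across the mice. Of the 45 pairs, 26 had a permutation p under 0.05 by Pearson's r after Benjamini-Hochberg adjustment over the 45, and 44 had a positive r (median 0.55, n = 18). By Spearman's rho 26 also passed, but not all the same pairs. Nfkbia with Fkbp5, Plin4 and Cdkn1a, Cdkn1a with Sgk1, and Tsc22d3 with Ddit4 passed by r alone. Mt1 with Sgk1, Zbtb16 and Nfkbia, and Zbtb16 with Tsc22d3 and Mt2, passed by rho alone. Later counts of passing pairs are by r unless rho is named. With the genotype and sex means taken out, all 45 were positive, with a median r of 0.69, and 33 passed. The means had no term for sex within genotype, so a sex difference that varies with genotype stays in. The mean z score after removal was 0.99, 0.12 and 0.66 in APOE3 males and -0.89, -0.87 and -0.0018 in APOE3 females. It was -0.39, -0.65 and -0.28 in APOE4 males and 1.81, -1.13 and 0.65 in APOE4 females. In APOE2 both sexes held positive and negative values. The part of sex within genotype in r was not tested. Without replicate 1 of APOE4, 19 of 45 passed as measured (median r 0.49) and 28 with the means taken out (median r 0.61). These settings were added after the data were seen. Permuting values from which fitted means were taken gives p-values that run low, so the counts of 33 and 28 may be too high. Within the 6 mice of a genotype, r was positive for 44 of 45 pairs in APOE2, 45 of 45 in APOE4 and 35 of 45 in APOE3. By exact permutation tests 16 of 45 passed in APOE4 by Pearson's r, where the median r was 0.87, but 3 passed by Spearman's rho. By either measure none passed in APOE2 (median r 0.73) or APOE3 (median r 0.53). Sex was left in these values within a genotype, so a difference between its females and males enters r.

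Fkbp5 and Plin4 were the closest pair once means were removed (r = 0.98). As measured they had r = 0.94 and rho = 0.95, each with a permutation p of 1e-05, the smallest that 100000 resamples can give, and adjusted p = 7.5e-05 and 2.25e-04. Leaving out the 2 mice farthest from the median of Fkbp5 gave r = 0.92, and within genotypes r was 0.90 in APOE2, 0.99 in APOE4 and 0.98 in APOE3. Mt1 and Mt2 had r = 0.94 and rho = 0.93 (permutation p = 1e-05 for each, adjusted p = 7.5e-05 and 2.25e-04). Without the 2 farthest mice r was 0.89, and it was 0.93 in APOE2, 0.95 in APOE4 and 0.95 in APOE3. Both pairs thus had r of 0.90 or more in every genotype, although no pair passed the test within APOE2 or within APOE3.

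Sgk1 paired with Tsc22d3 (r = 0.93, rho = 0.86, permutation p = 1e-05 and 3e-05, adjusted p = 7.5e-05 and 2.7e-04) and with Nfkbia (r = 0.93, rho = 0.89, permutation p = 1e-05 and 2e-05, adjusted p = 7.5e-05 and 2.25e-04). Without the 2 farthest mice these were r = 0.86 and r = 0.83. Within genotypes Sgk1 and Tsc22d3 had r = 0.94 in APOE2, 0.98 in APOE4 and 0.90 in APOE3, and Sgk1 and Nfkbia had r = 0.89, 0.97 and 0.90 in the same order. Ddit4, Zbtb16 and Cdkn1a had the fewest passing pairs as measured by Pearson's r, at 3, 2 and 2. By Spearman's rho Zbtb16 passed with Fkbp5, Tsc22d3, Plin4, Mt1 and Mt2, and Ddit4 with Sgk1 and Nfkbia. The lowest adjusted permutation p of a Cdkn1a pair by rho was 0.159, with Nfkbia. Ddit4 and Nfkbia had r = 0.78 and rho = 0.64 (permutation p = 3e-04 and 0.00516, adjusted p = 0.00169 and 0.0142), which dropped to r = 0.53 without the 2 farthest mice. Within genotypes this r was 0.77 in APOE2, 0.84 in APOE4 and 0.13 in APOE3. Ddit4 and Zbtb16 had r = -0.22 and rho = -0.46 (permutation p = 0.397 and 0.0551, adjusted p = 0.458 and 0.0885), with r = -0.09 without the 2 farthest mice and r = -0.06, 0.36 and -0.69 within APOE2, APOE4 and APOE3.

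Cdkn1a and Zbtb16, whose genotype differences ran in opposite directions, had r = 0.04 and rho = 0.01 as measured (permutation p = 0.873 and 0.967, adjusted p = 0.873 and 0.973). The value was r = 0.06 without the 2 farthest mice. Within genotypes the same pair had r = 0.60 in APOE2, 0.92 in APOE4 and 0.64 in APOE3. Of the 26 pairs that passed by Pearson's r, 3 had r under 0.3 without the 2 farthest mice (Tsc22d3 with Ddit4, and Cdkn1a with Sgk1 and with Nfkbia), so these 3 rest on those mice.

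**Figure D4:**
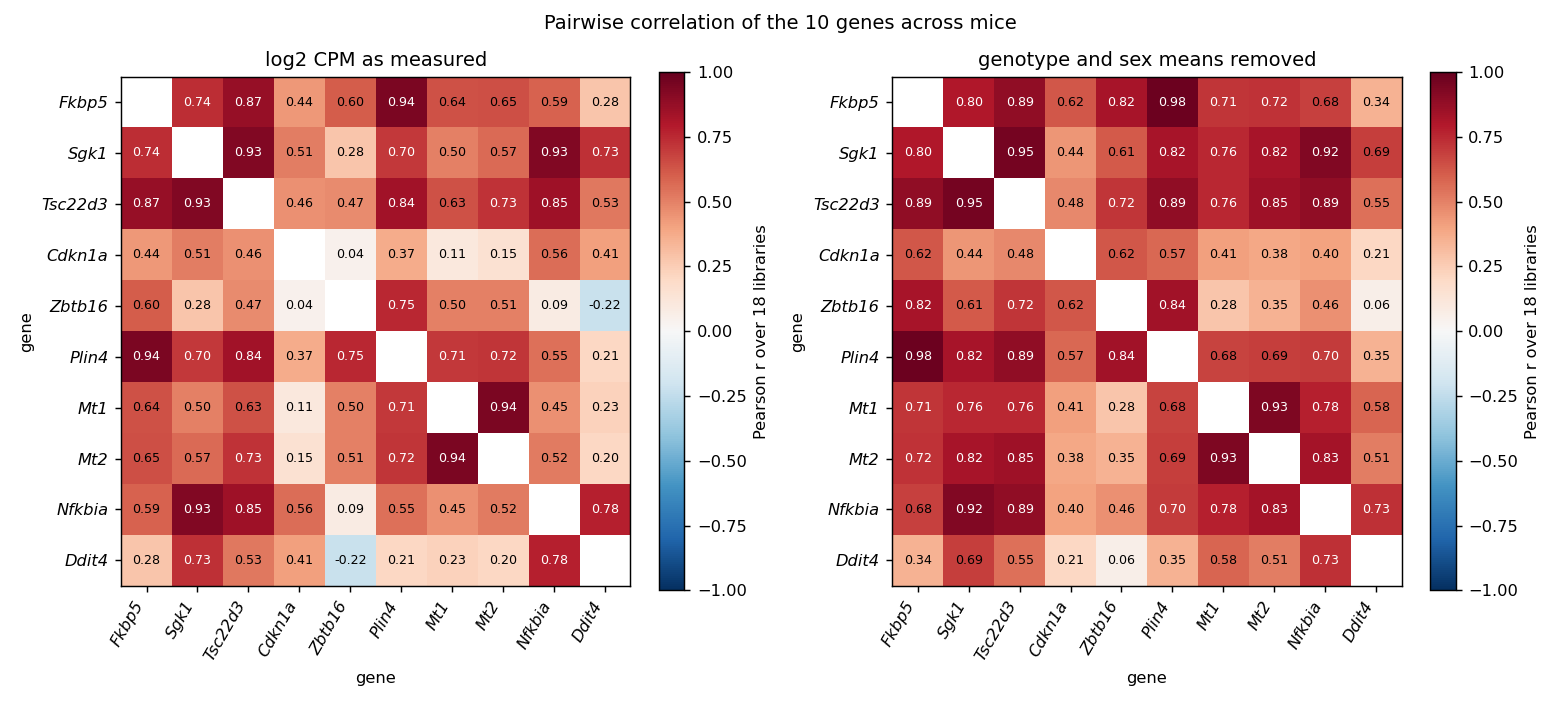
Pearson r over 18 libraries for each pair of the 10 genes (both axes are genes, colour and numbers give r), for log2 CPM as measured on the left and with genotype and sex means removed on the right. Fkbp5, Plin4, Tsc22d3, Sgk1 and Nfkbia form the reddest block, and the palest rows are those of Zbtb16, Cdkn1a and Ddit4 on the left and of Ddit4 and Cdkn1a on the right.

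Other glucocorticoid-induced genes followed the same mice. Likeness was measured as Pearson's r over 18 libraries between a gene and the mean z score of the 10 members. Genotype and sex means were removed, and a sex difference that varies with genotype stays in. Likeness is a description with no test, since library and depth are shared by all genes. Of 28 further glucocorticoid-induced genes, 20 (71.4%) had r over 0.5, against 718 of 14817 genes (4.85%), and the median r was 0.69. Without replicate 1 of APOE4 it was 16 of 28 (57.1%), against 6.38% of all genes. Mfsd2a, the lysolipid transporter of the blood-brain barrier (r = 0.93), Slc2a1, the glucose transporter of the barrier (r = 0.92), Xdh, xanthine dehydrogenase (r = 0.88), Hif3a (r = 0.88) and Arrdc2 (r = 0.86) stood highest. Hif3a had 18.4 CPM in replicate 1 and 3.82 CPM in replicate 2 of APOE4, and Arrdc2 had 28.1 and 10.1 CPM in the same mice. The transcription factors Klf15 (r = 0.81) and Klf9 (r = 0.78) and the glutamine synthetase gene Glul (r = 0.56) were also above 0.5. Dusp1, a phosphatase that activity and stress induce as well, was not (r = -0.35).

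In the genotype comparisons those 28 genes held 1 call, in APOE2 versus APOE4, where 6.53% of all genes were called. Pdk4, which restrains pyruvate dehydrogenase, was lower in APOE2 at 9.97 ± 0.49 CPM against 17.2 ± 7.18 CPM in APOE4 (SD, n = 6), a log2 difference of -0.77 ± 0.16 (SE, adjusted p = 0.00563). Per1 (-0.68, adjusted p = 0.0528) and Errfi1 (-0.20, adjusted p = 0.0587) came next and did not pass. The list had 0 calls in APOE2 versus APOE3, 0 in APOE4 versus APOE3 and 0 in female versus male, with 4, 3 and 3 genes at an unadjusted p under 0.05, against 16.8%, 8.78% and 8.46% of all genes. In APOE2 versus APOE4, 8 of the 28 had an unadjusted p under 0.05, against 20.2% of all genes. There the log2 difference was negative for 19 and positive for 9, with a list median of -0.11, against 0.00 over all genes.

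**Figure D5:**
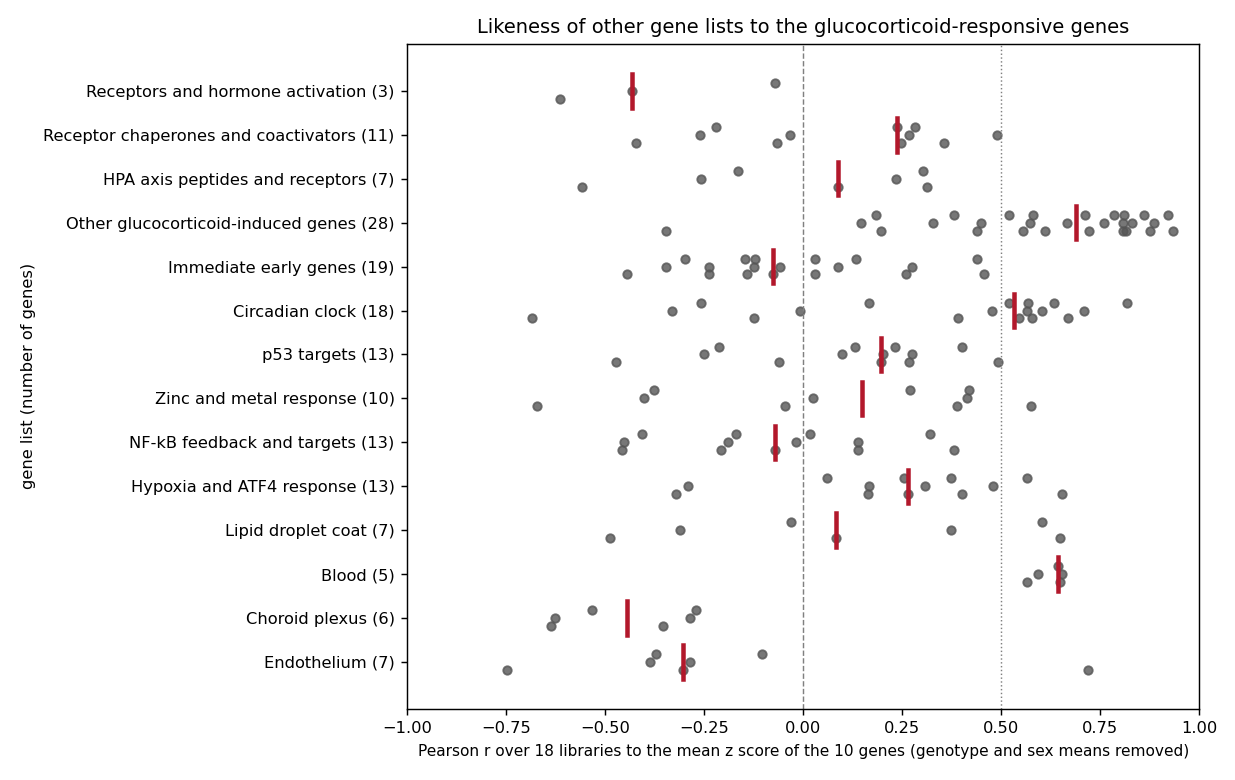
Pearson r over 18 libraries between single genes (points) and the mean z score of the 10 members, by gene list (rows, number of genes in brackets), with the median of each list in red and a dotted line at 0.5. The points of the other glucocorticoid-induced genes and the blood genes lie furthest right, and those of the receptors and the choroid plexus lie left of 0.

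The hormone's receptors did not follow. Nr3c1 averaged 135 ± 13.4 CPM in APOE2, 128 ± 13.7 CPM in APOE4 and 129 ± 4.55 CPM in APOE3 (SD, n = 6), and its r to the members' score was -0.61. It had 117 CPM in replicate 1 and 147 CPM in replicate 2 of APOE4, the libraries with the highest and lowest score. Nr3c2 had r = -0.43. Hsd11b1, which regenerates active hormone inside cells, had r = -0.07. It was the only called gene of the 3 measured in this list, in female versus male, where 0.132% of all genes were called. Its level was 12.7 CPM in females and 15.6 CPM in males (log2 -0.29 ± 0.05, SE, adjusted p = 0.00772). Of 11 receptor chaperones and coactivators none was called by edgeR, and none had r over 0.5. At most 3 were under 0.05 unadjusted in a comparison (female versus male, against 8.46% of all genes). Of 9 measured hypothalamic and pituitary peptides and receptors none was called, with at most 2 under 0.05 unadjusted (APOE2 versus APOE4, against 20.2% of all genes). Avp was nearest, with 18.2 ± 4.98 CPM in APOE2 against 12.2 ± 2.08 CPM in APOE4 (SD, n = 6, adjusted p = 0.0544).

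Immediate early genes, which neuronal activity and arousal induce within minutes, did not follow the score over all mice. None of 19 had r over 0.5 to the score (median -0.08). All 19 were higher in replicate 1 than in replicate 2 of APOE4, as were 47.4% of 14817 genes. Arc, a synaptic gene, had 279 CPM in replicate 1 and 116 CPM in replicate 2, and Fos had 49.6 and 20.4 CPM. In APOE2 versus APOE4, 6 of 19 were called, against 6.53% of all genes, all lower in APOE2: Egr1, Dusp6, Egr4, Nr4a1, Egr2 and Fosb. There 13 of the 19 had an unadjusted p under 0.05, against 20.2% of all genes, and all 19 had a negative log2 difference. The mean of Egr1 was 141 ± 32.4 CPM in APOE2 against 272 ± 59.02 CPM in APOE4 (SD, n = 6, log2 -0.96 ± 0.21, SE, adjusted p = 0.011). None of the 19 was called in APOE2 versus APOE3, in APOE4 versus APOE3 or between the sexes, with 10, 0 and 0 at an unadjusted p under 0.05, against 16.8%, 8.78% and 8.46% of all genes.

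The circadian clock list, many of whose genes glucocorticoids also set, had 10 of 18 genes with r over 0.5 (55.6%). Per2 stood highest (r = 0.82), and Arntl had r = -0.68. The count over 0.5 rested on 1 mouse: without replicate 1 of APOE4 it was 2 of 18. Per2 had 88.3 CPM in that library and 41.3 CPM in replicate 2 of APOE4. Bhlhe40 and Nfil3, 2 of 18, were called lower in APOE2 than in APOE4 (log2 -0.45 and -0.38, adjusted p = 0.0274 and 0.0375), where 6.53% of all genes were called. Of the 18, 5 had an unadjusted p under 0.05 there, against 20.2% of all genes. No clock gene was called in APOE2 versus APOE3, APOE4 versus APOE3 or between the sexes. In these, 4, 1 and 0 were under 0.05 unadjusted, against 16.8%, 8.78% and 8.46% of all genes.

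The lists tied to the other inducers of the members gave few like genes. Of 13 NF-kB targets and 13 p53 targets none had r over 0.5, and of 10 zinc-response genes 1 did. None of the 10 zinc-response genes was called by edgeR in any comparison. An unadjusted p under 0.05 was found for 2 in APOE2 versus APOE3, 2 in APOE2 versus APOE4, 0 in APOE4 versus APOE3 and 2 between the sexes. The shares of all genes were 16.8%, 20.2%, 8.78% and 8.46% in the same order, and 3.91%, 6.53%, 0.773% and 0.132% of all genes were called. These shares of called genes also apply to the calls below. The p53, NF-kB and hypoxia and ATF4 lists had 15 tested genes each, and the lipid droplet list had 8. Of the p53 list, Plk2 and Sesn2 were called lower in APOE2 than in APOE3 (adjusted p = 8.64e-04 and 0.00368) and than in APOE4, Pmaip1 was called higher in APOE4 than in APOE3 (adjusted p = 2.20e-04) and lower in APOE2 than in APOE4, and Ei24 was called higher in APOE2 than in APOE4 (adjusted p = 0.0174). Tnip1, an NF-kB inhibitor, was called higher in APOE2 than in APOE4 (adjusted p = 0.0176) and than in APOE3 (adjusted p = 0.042). In the hypoxia and ATF4 list 2 of 13 had r over 0.5. There Atf4 was called lower in APOE2 (95.8 ± 7.44 CPM) than in APOE4 (131 ± 7.35 CPM), and higher in APOE4 than in APOE3 (100 ± 4.28 CPM, SD, n = 6). Asns was called the same way, Sesn2 was lower in APOE2 than in APOE4 and APOE3, and Ddit3 was higher in APOE2 than in APOE4. Of the lipid droplet coat genes 2 of 7 had r over 0.5, and Plin2 was called higher in APOE2 than in APOE4 (log2 0.31 ± 0.08, SE, adjusted p = 0.0166).

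Red cell transcripts moved with the members. All 5 blood genes had r over 0.5 to the score (0.57 to 0.65), with and without replicate 1 of APOE4, and none was at 0 in any library. Their summed level was 63.2 to 205 CPM in APOE2, 46.9 to 80.9 CPM in APOE4 and 55.3 to 105 CPM in APOE3. It correlated with the score at r = 0.59 and rho = 0.62 over 18 mice with genotype and sex means removed. Replicates 1 and 2 of APOE4, the extremes of the score, had 80.9 and 46.9 CPM. In APOE2 versus APOE4 all 5 were higher with an unadjusted p under 0.05, as 20.2% of all genes had in either direction. None of the 5 was called there, where 6.53% of all genes were. The part of blood in the members' values was not tested. Choroid plexus genes ran the other way (median r -0.44, summed level 433 to 1157 CPM in APOE2, 456 to 802 CPM in APOE4 and 564 to 785 CPM in APOE3). The 7 endothelial markers had a median r of -0.30, and their summed level had r = -0.49. They ran from Cldn5 (r = -0.75) to Ly6c1 (r = 0.72). The summed markers of neurons, astrocytes, oligodendrocytes and microglia had r of 0.09, -0.01, 0.14 and -0.33, the total count -0.20 and the mitochondrial share of counts 0.07. Neuronal and glial markers were above 0 in every library.

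The 10 genes of most like pattern included kinase, transport and metabolic genes. They were Plekhf1 (r = 0.95), an endosomal phosphoinositide-binding protein, Map3k6 (0.94), a kinase, Mfsd2a (0.93), Smim3 (0.93), Slc2a1 (0.92), Galnt15 (0.92), Net1 (0.91), an activator of RhoA, Ppp1r3g (0.90), a glycogen-targeting subunit of protein phosphatase 1, Sdc4 (0.90), a syndecan, and Gpt2 (0.90), the mitochondrial alanine aminotransferase. Plekhf1 ran from 2.31 to 8.74 CPM, and 8 of the 10 genes were highest in replicate 1 of APOE4. Net1 and Sdc4 were highest in replicate 3 of APOE2, as Mt1 and Mt2 were. Map3k6 was the only gene of the 10 called between genotypes, with log2 differences of -1.14 in APOE2 versus APOE3 (adjusted p = 0.00299) and -1.01 in APOE2 versus APOE4 (adjusted p = 0.00664). By single member, the most like gene was Map3k6 for Fkbp5 (r = 0.95), Plekhf1 for Sgk1 (0.95) and for Nfkbia (0.90), Slc2a1 for Tsc22d3 (0.94), Mertk for Plin4 (0.94), Nolc1 for Cdkn1a (0.93), Net1 for Mt2 (0.92), Arl4d for Ddit4 (0.89), Ets2 for Zbtb16 (0.89) and Alas2, a red cell gene, for Mt1 (0.88).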

How the data were processed

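RNA of flash-frozen hemibrains was extracted with miRNeasy and made into stranded polyA libraries (TruSeq Stranded mRNA), sequenced as single reads, per the labels' protocols. Trimmomatic, STAR 2.7.0, featureCounts, DESeq2 and the builds GRCm38 and mm10 are named in the submitters' processing notes. For the gene annotation, for strandedness in counting and for the DESeq2 design, the sources used here name nothing. The authors deposited raw counts per gene symbol, normalized values (a signal: each count divided by 1 size factor per library) and tables of log2 fold changes, standard errors, Wald statistics (a score) and p-values for each genotype pair, with columns named per the file headers. The third of the authors' deposited tables runs APOE3 over APOE4. Results rest on the counts, except where the authors' table is named.

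Symbols that had turned into dates (26) were left out. Counts were tested with edgeR 4.0.16 (R 4.3.3): TMM scaling, filterByExpr, a robust quasi-likelihood fit with genotype and sex over all 18 libraries, and Benjamini-Hochberg adjustment over 18891 genes with a threshold of 0.05. Interactions used genotype by sex. CPM is the count scaled to library size with TMM factors, and log2 CPM used a prior count of 0.5. Alternatives used DESeq2 1.42.0, limma 3.58.1 and sva 3.50.0. Positions and exon lengths are those of GENCODE M21 (GRCm38), matched by symbol for 47982 of 52433 symbols. No member had a near-identical copy (blastn 2.17.0, at least 90% identity over 50% of the transcript). Replicate libraries differed by more than sampling noise, with chi-square per degree of freedom of 5.37 to 42.4 over 45 pairs. In counts simulated for APOE2 versus APOE3 over 18891 genes, 76% of 100 genes changed 1.5-fold and 92% of 100 genes changed 2-fold were recovered, and 3.45% of calls were false. That recovery is for genes of all degrees of spread and does not carry over to the members, whose spread was wider than that of most genes.

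Correlations used permutation tests with 100000 resamples. The p-values measure the spread between these samples, which the labels list as separate mice. The text names all members, the called genes of each pathway list and up to 3 more by smallest p, the 10 genes most like the members' score and the 1 most like each member. Genes named for their r to the score were picked after their values were seen. The members and lists were chosen with earlier results of these data known.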

Additional observations from a re-analysis of the deposited data

Results flagged for a closer look

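Zbtb16 in APOE3 replicate 1, a male, stood at 57.7 CPM, apart from the other 5 APOE3 libraries at 33.2 to 38.1 CPM. Its gap to the nearest library exceeded Dixon's critical value of 0.625 of the group's range for 6 samples. It was 1 of 30 combinations of gene and genotype examined, and chance flags about 1 in 20 groups. The same library was the highest in APOE3 for Fkbp5, Plin4, Cdkn1a and Tsc22d3.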

How the results depend on the processing

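The count of members called was 0 of 10 in each comparison. In APOE2 versus APOE4 it was 1 with a filter of 1 CPM in 6 libraries, 1 with DESeq2, 1 with limma voom, 2 with 1 mean per genotype and sex, 2 with the 12 compared libraries alone, and 0 to 2 with 1 library left out. In APOE2 versus APOE3 it was 1 with 1 mean per genotype and sex and 0 to 1 with 1 library left out, and in the APOE4 versus APOE3 interaction 1 with DESeq2 and 0 to 1 with 1 library left out. Over all genes, APOE4 versus APOE3 had 146 calls, 272 with DESeq2. APOE2 versus APOE4 had 1233 calls, 947 to 1903 with 1 library left out (1903 without replicate 5 of APOE4). Female versus male had 25 calls, 59 with DESeq2 and 53 with no filter on low counts. The interactions of APOE2 versus APOE3, APOE4 versus APOE3 and APOE2 versus APOE4 had 0, 2 and 0 calls, 7, 37 and 1 with DESeq2, and 0 to 1, 0 to 11 and 0 to 1 with 1 library left out. Of 45 member pairs 26 passed over 18 mice by Pearson's r, against 0 within APOE2, 16 within APOE4 and 0 within APOE3, where n was 6. By Spearman's rho 26 passed over 18 mice, against 0, 3 and 0 in the same order. Clock genes with r over 0.5 numbered 10, 5 as measured and 2 without replicate 1 of APOE4. Of the 10 genes of like pattern 6 were shared with those found as measured. The cause was not tested. Of the single-gene values 1632 kept their direction and side of the threshold, 17 moved past it and 71 turned sign. Those 71 were called neither as reported nor under the alternative. The turned values belong to 22 differences, all within 0.205 on the log2 scale. With 1 library left out, Fkbp5 ran from -0.11 to 0.091 in APOE2 versus APOE3, -0.060 to 0.15 in APOE2 versus APOE4, -0.17 to 0.075 in APOE4 versus APOE3 and -0.047 to 0.11 between the sexes. In APOE2 versus APOE3 Sgk1 ran from -0.20 to 0.090, Tsc22d3 from -0.13 to 0.022, Mt2 from -0.026 to 0.18 and Plin4 from -0.19 to 0.51. In APOE2 versus APOE4 Tsc22d3 ran from -0.16 to 0.070 and Plin4 from -0.10 to 0.76, and in APOE4 versus APOE3 Tsc22d3 from -0.11 to 0.12, Plin4 from -0.62 to 0.28 and Zbtb16 from -0.20 to 0.054. Ddit4 ran from -0.046 to 0.10 between the sexes. In the interactions Ddit4 ran from -0.19 to 0.025 (APOE2 versus APOE3), -0.29 to 0.23 (APOE2 versus APOE4) and -0.29 to 0.23 (APOE4 versus APOE3). Mt1 ran from -0.013 to 0.40 (APOE2 versus APOE3), and in APOE2 versus APOE4 Mt1 ran from -0.19 to 0.22, Mt2 from -0.29 to 0.32, Nfkbia from -0.35 to 0.13 and Cdkn1a from -0.19 to 0.19. Plin4 in APOE4 versus APOE3 was 0.13 with no sex term and 0.0072 in mice whose titles end in e or f, and Fkbp5 in APOE2 versus APOE4 was -0.014 with a surrogate variable. With limma voom the interactions were -0.044 for Ddit4 (APOE4 versus APOE3), -0.018 for Cdkn1a and 0.023 for Mt2 (both APOE2 versus APOE4). No paired analysis was possible because the titles share no animal numbers between genotypes. Most titles also end in a letter that the labels do not explain. The letters e and f occur in APOE4 and APOE3 alone, and those mice by themselves gave 127 calls in APOE4 versus APOE3, with 0 members. The APOE2 titles end in c or in no letter, unlike all other titles. In APOE3 and APOE4 every male title ends in e, and the female titles end in f, g or d. What the letter marks thus cannot be told apart from genotype in the APOE2 comparisons, or from sex in APOE3 and APOE4. Depth limits Plin4 most, with 93 reads in its lowest library.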
